A study of Capra hircus with 10 samples.

Results

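The genes described here are those of the BCL2 family, chosen by symbol: the anti-apoptotic BCL2, BCL2L1 (BCL-XL), BCL2L2 (BCL-W) and MCL1, the effectors BAX and BAK1, and the BH3-only genes BID, BAD, BCL2L11 (BIM) and BBC3 (PUMA). Of these 10 symbols, 9 have protein-coding rows in the table, which lists 20587 protein-coding gene symbols. BCL2L2 was not analysed here. All 9 genes passed the filter on low values (0.1 FPKM or more in 5 or more of 10 ovaries), as did 15359 genes in all. They are carried by 25 of the 50146 transcripts.

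Whole ovaries of Anhui white goats were compared, 5 labelled luteal phase and 5 labelled follicular phase, and no source names a treatment of either group. The ovaries came from a slaughterhouse, 1 ribosomal RNA-depleted, strand-specific library was made from each, and no source says that ovaries of a phase came from separate goats, so p-values measure only the spread between these ovaries. Values are FPKM (fragments scaled to transcript length and to the mapped fragments of the library), summed over the protein-coding transcripts of a symbol. Summed over all transcripts, luteal ovaries held 452508 to 503276 FPKM and follicular phase ovaries 492324 to 540124. Read counts were not used here, so the depth behind each ovary's values is not known from them, and precision is given by the spread between ovaries.

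Anti-apoptotic members bind and hold back BAX and BAK1, which otherwise form pores in the outer mitochondrial membrane and release cytochrome c. BH3-only proteins are made or activated under stress and tip this balance, either by occupying the anti-apoptotic members or by activating the effectors directly. In the ovary, this pathway is known for the death of granulosa cells in follicles that stop growing and for the regression of the corpus luteum.

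The levels of the 9 genes spanned about 2 orders of magnitude, and the order was nearly the same in every ovary. MCL1 was by far the most abundant, with a mean of 144 FPKM over the 10 ovaries (SD 16.3), 6.60 times that of BID, the next gene. BID had a mean of 21.8, BAD 14.8 and BAK1 12.0 FPKM. BCL2L1 followed at 5.92, BAX at 4.65, BCL2 at 3.24, BCL2L11 at 2.54 and BBC3 at 1.40 FPKM. MCL1 exceeded BID, BID exceeded BAD, BAK1 exceeded BCL2L1 and BCL2L11 exceeded BBC3 in 10 of 10 ovaries. BAD against BAK1 and BCL2L1 against BAX kept their order in 9 of 10 ovaries. The position of BCL2 depended on the phase. It lay above BCL2L11 in 5 of 5 follicular phase ovaries and in 1 of 5 luteal phase ovaries, and BAX exceeded it in 5 of 5 luteal but only 3 of 5 follicular phase ovaries.

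**Figure D1:**
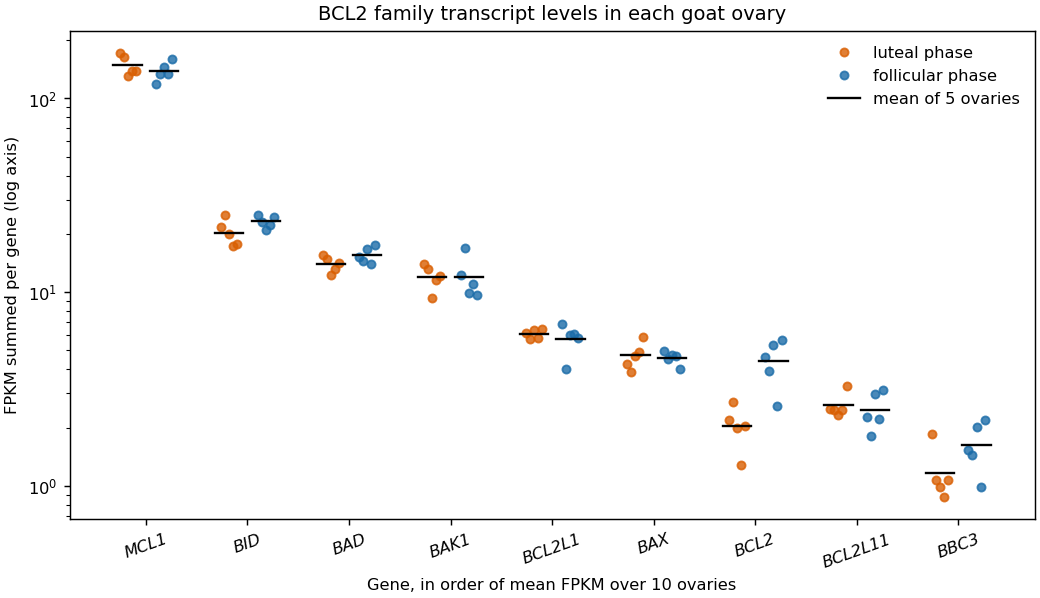
FPKM of the 9 BCL2 family genes (log axis) in each of the 5 luteal (orange) and 5 follicular phase ovaries (blue), with the mean of each phase as a black line. MCL1 lies far above the others, and BCL2 is the gene whose phases are farthest apart, at a mean of 2.04 against 4.43 FPKM.

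Differences are luteal minus follicular values of log2(FPKM + 0.1), a scale that understates the change of low genes, from limma fitted to all 15359 genes (two-sided, Benjamini-Hochberg adjustment over all of them). BCL2 was the only one of the 9 genes with an adjusted p under 0.05, and it was lower in the luteal phase. Among all genes tested, 43.7% passed this threshold, 27.8% of all genes being lower and 15.9% higher in the luteal phase. The median log2 fold change of the 9 genes was 0.03, against -0.14 over all genes. The FPKM ranges of the phases overlapped for 9 of 9 genes, where 28.4% of all genes tested had ranges that did not. In absolute size the median change was 0.11 for the 9 genes and 0.34 for all genes. BCL2 was called in all 20 alternative fits, and the other 8 genes gave calls in 2 of 160 values under the same alternatives, both where 1 ovary was left out.

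**Figure D2:**
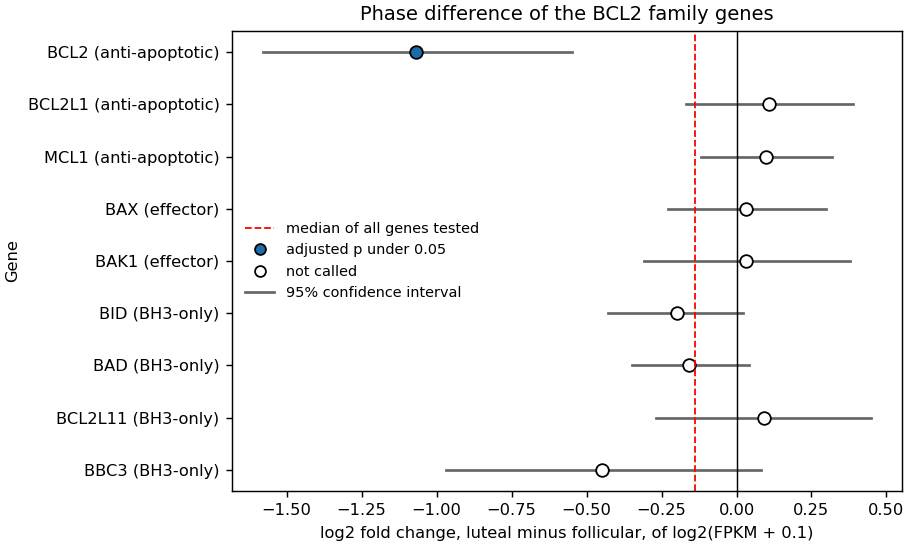
log2 fold change (luteal minus follicular, of log2(FPKM + 0.1)) of each BCL2 family gene with its 95% confidence interval. The interval of BCL2, from -1.58 to -0.55, lies below 0 and below the median of all genes (dashed line, -0.14), while those of the other 8 genes include 0.

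Among the anti-apoptotic genes, BCL2, the founding member of the family, stood at 2.19, 2.72, 1.99, 1.28 and 2.04 FPKM in luteal phase replicates 1 to 5. In follicular phase replicates 1 to 5 it stood at 4.65, 3.92, 5.34, 2.57 and 5.68 FPKM. The ranges overlapped through a single pair of ovaries, luteal phase replicate 2 and follicular phase replicate 4. The log2 fold change was -1.07 (standard error 0.23, 95% confidence interval -1.58 to -0.55, limma adjusted p = 0.00398), and 8.85% of all genes tested had a larger change in either direction. Relative to the median of all genes BCL2 stood at -0.93, and at -0.90 after quantile normalization. Common-median and TPM scaling shift all genes of an ovary alike, apart from the pseudocount in TPM, so they cannot test this distance. The log2 fold change of BCL2 itself was -0.98 with a common median, -0.99 with quantile normalization and -0.99 on the TPM scale. With each ovary left out in turn the values ran from -1.24, without follicular phase replicate 4, to -0.92, without luteal phase replicate 4, all of them called.

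BCL2 has 3 annotated transcripts in the table. The most abundant, XM_018039337.1, was at 1.12 to 1.81 FPKM in luteal and 1.95 to 3.06 in follicular phase ovaries. These ranges did not overlap, which was the case for 15.3% of all transcripts tested. It was lower in the luteal phase by -0.83 on the log2 scale (standard error 0.19, limma adjusted p = 0.0140 over all 32842 transcripts tested). It was the only called transcript among the 21 of the family that passed the filter, where 17.3% of all transcripts were called, 7.47% higher and 9.82% lower in the luteal phase. NM_001314213.1, chosen here after its values were seen, was far less even. It stood between 1.91 and 2.67 FPKM in 4 follicular phase ovaries and at 0.0329 in follicular phase replicate 4. In the luteal phase it lay at 0.0528 and 0.0564 in replicates 3 and 4 and between 0.460 and 1.24 in the other ovaries. This gave a log2 fold change of -1.54 with a standard error of 0.94 (adjusted p = 0.293), and -2.36 without follicular phase replicate 4 (standard error 0.67, adjusted p = 0.0463). That was its only call in 19 alternatives, whose values ran from -2.36 to -0.79 with adjusted p-values up to 0.479. XM_018039338.1 stayed at or below 0.139 FPKM in every ovary.

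**Figure D3:**
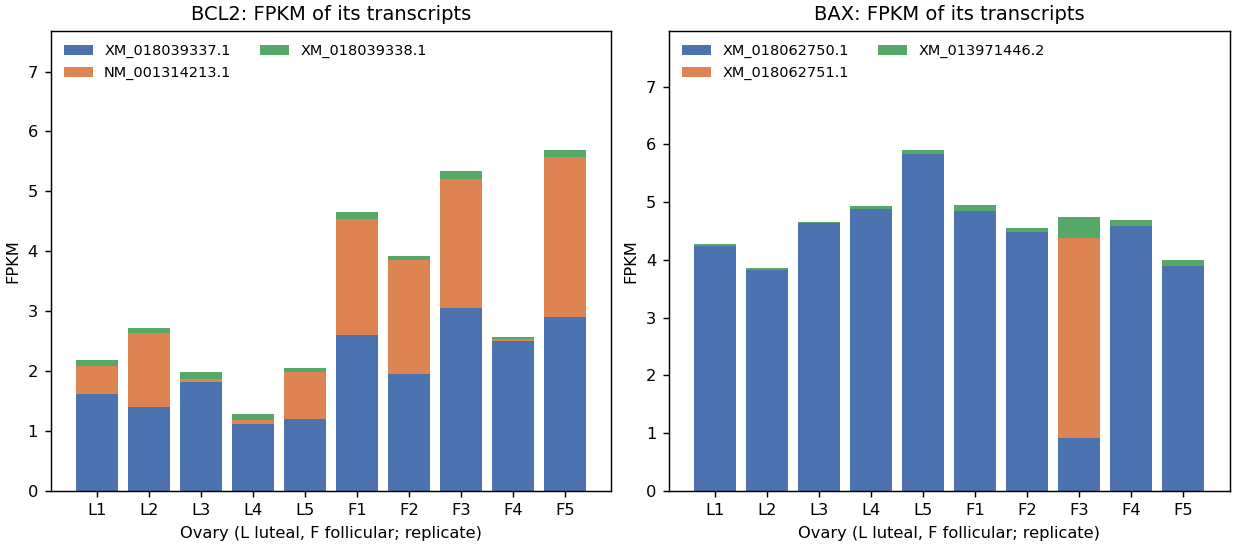
FPKM of the 3 transcripts of BCL2 (left) and of BAX (right), stacked for each ovary (L1 to L5 luteal, F1 to F5 follicular phase replicates 1 to 5). BCL2 totals are lower in the luteal ovaries on average, with L2 above F4, and in F4, L3 and L4 XM_018039337.1 holds at least 87.1% of BCL2, while F3 is the only ovary in which XM_018062751.1 holds most of BAX.

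These are whole ovaries, so fewer cells of a type and less RNA per cell cannot be told apart, and marker genes of several cell types moved between the phases beside BCL2. Of 6 luteal steroidogenic markers tested, 6 were higher in the luteal phase, and their summed FPKM ran from 5905 to 8076 there and from 131 to 183 in the follicular phase. Endothelial markers summed to between 207 and 258 FPKM in the luteal and between 106 and 128 in the follicular phase, with 5 of 6 called higher in the luteal phase. Smooth muscle markers were called lower in the luteal phase in 5 of 5 cases, with sums of 538 to 967 against 1176 to 1486 FPKM. Theca markers summed to at most 70.8 FPKM in the luteal and at least 139.9 in the follicular phase, with 2 of 3 called lower in the luteal phase. Granulosa markers overlapped, at 163 to 740.2 against 285 to 1256 FPKM, with 4 of 8 called lower in the luteal phase, as did oocyte markers, at 8.71 to 20.6 against 16.9 to 49.1, with 6 of 10 called lower. The stroma list ran from 1953 to 3504 against 1753 to 2472 FPKM, with 2 of 6 called higher and 1 lower in the luteal phase. Lymphocyte and macrophage markers, with 1 of 8 called higher in the luteal phase, summed to 41.2 to 55.2 against 22.3 to 62.9 FPKM. The 2 blood markers in the table, HBM and ALAS2, summed to at most 0.201 FPKM in any ovary. The part of these cell types in the BCL2 difference, or in the differences of the genes and lists below, was not tested.

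MCL1, a short-lived protein on which many cells depend for survival, did not pass the test. It stood at 171, 164, 130.4, 139 and 139 FPKM in luteal phase replicates 1 to 5 and at 119, 134, 146, 135 and 159 FPKM in follicular phase replicates 1 to 5. The ranges overlapped over most of their width. Its log2 fold change was 0.10 (standard error 0.10, 95% confidence interval -0.12 to 0.32, limma adjusted p = 0.439), which limits a phase difference to between 0.921-fold and 1.25-fold on this scale. Only 2.51% of all genes tested had a higher mean FPKM.

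BCL2L1, the BCL-XL gene, was the steadiest in the luteal phase, from 5.76 to 6.46 FPKM with a coefficient of variation of 5.12%. In the follicular phase it ranged from 4.03 in replicate 2 to 6.81 in replicate 1, a coefficient of variation of 17.9%. The means were 6.11 ± 0.313 and 5.74 ± 1.03 FPKM (SD, n = 5 each). Its log2 fold change of 0.11 had a 95% confidence interval from -0.17 to 0.39 (limma adjusted p = 0.516). Its 3 transcripts, of which XM_018057681.1 held 62.1 ± 7.61% of the gene's FPKM in luteal and 68.2 ± 9.70% in follicular phase ovaries, were all uncalled.

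Neither effector passed the test, and both had means that differed little. BAX, which moves from the cytosol to mitochondria when activated, stood at 4.27, 3.85, 4.66, 4.93 and 5.90 FPKM in luteal phase replicates 1 to 5 and at 4.95, 4.54, 4.73, 4.70 and 3.99 in follicular phase replicates 1 to 5. Both the highest and the lowest ovary were luteal. Its log2 fold change was 0.03 (standard error 0.12, 95% confidence interval -0.23 to 0.30, limma adjusted p = 0.849), and leaving out replicate 5 turned it to -0.05 (luteal) or -0.02 (follicular). BAK1, which sits in the mitochondrial membrane, was at 12.0 ± 1.80 FPKM in luteal and 11.9 ± 2.95 in follicular phase ovaries (SD, n = 5 each), with a log2 fold change of 0.03 (95% confidence interval -0.31 to 0.38, limma adjusted p = 0.878). The highest ovary was follicular phase replicate 2 at 16.8 FPKM and the lowest luteal phase replicate 3 at 9.33, and leaving out any 1 of 4 ovaries turned the sign.

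The transcript that carried BAX was the same in 9 of 10 ovaries. XM_018062750.1 held between 98.8% and 99.6% of the gene's FPKM in luteal ovaries and between 97.4% and 98.7% in 4 follicular phase ovaries. In follicular phase replicate 3 it held 19.2%, at 0.910 FPKM. There XM_018062751.1, named after its values were seen, was listed at 3.47 FPKM, while it was listed at 0 in the other 9 ovaries. The gene's sum in that ovary, 4.73 FPKM, lay within the range of the others. The share of XM_018062750.1 was 17.0 percentage points higher in the luteal phase with no overlap (two-sided exact permutation p = 0.00794, the lowest value possible with 5 against 5 ovaries, and 0.0556 after Benjamini-Hochberg adjustment over the 7 genes with at least 2 transcripts). Without follicular phase replicate 3 the difference was 1.21 points (exact permutation test, adjusted p = 0.0556), and without follicular phase replicate 1 it was 20.9 points (exact permutation test, adjusted p = 0.0278). The adjustment ranks the 7 genes together, and BCL2L11 reached the same adjusted value without that ovary. The lower value is therefore not particular to BAX.

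Of the 4 BH3-only genes among the 9, BID, which caspase-8 cleaves to link death receptors with mitochondria, was the most abundant. It stood at 21.6, 24.9, 20.0, 17.4 and 17.6 FPKM in luteal phase replicates 1 to 5 and at 25.1, 23.0, 21.0, 22.2 and 24.6 in follicular phase replicates 1 to 5. The luteal ovaries spread more widely, and replicates 1 and 2 lay within the follicular phase range. The resulting log2 fold change was -0.20 (standard error 0.10, 95% confidence interval -0.43 to 0.02, limma adjusted p = 0.133). Without luteal phase replicate 2 it was -0.28, with an adjusted p of 0.0315 in limma. BAD, whose binding to BCL-XL is switched by phosphorylation, was at 15.5, 14.7, 12.3, 13.2 and 14.2 FPKM in luteal phase replicates 1 to 5 and at 15.2, 14.5, 16.8, 13.9 and 17.6 in follicular phase replicates 1 to 5, with overlapping ranges. Its log2 fold change of -0.16 (95% confidence interval -0.35 to 0.04, limma adjusted p = 0.177) was close to the median of all genes, -0.14.

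BCL2L11 and BBC3, both known to be induced by stress signalling, had the lowest means of the 9 genes over the 10 ovaries, although BCL2 lay below BCL2L11 in 4 of 5 luteal ovaries. BCL2L11 stood between 2.33 and 2.51 FPKM in 4 luteal phase ovaries and at 3.26 in replicate 5, against 1.80 to 3.12 in the follicular phase. This log2 fold change was 0.09 (95% confidence interval -0.27 to 0.45, limma adjusted p = 0.676). BBC3 was at 1.85, 1.07, 0.983, 0.876 and 1.08 FPKM in luteal phase replicates 1 to 5 and at 1.53, 1.45, 2.02, 0.990 and 2.19 in follicular phase replicates 1 to 5. Most luteal phase ovaries lay below most follicular phase ovaries, with luteal phase replicate 1 and follicular phase replicate 4 as the exceptions. Its log2 fold change was -0.45 with a wide 95% confidence interval of -0.97 to 0.08 (limma adjusted p = 0.150), and without luteal phase replicate 1 it was -0.61 (limma adjusted p = 0.0446). Its interval as a fold ran from 0.510-fold to 1.06-fold.

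Several transcripts shared the signal of these low genes. XM_018054808.1, the most abundant of 6 BCL2L11 transcripts, held 31.2 ± 5.93% of the gene's FPKM in luteal and 45.7 ± 8.98% in follicular phase ovaries (SD, n = 5 each), with overlapping ranges. The exact permutation p of this difference was 0.0317, and it was 0.111 after adjustment over the 7 genes. Without follicular phase replicate 1 the difference grew from -14.5 to -18.2 percentage points (exact permutation test, adjusted p = 0.0278). XM_018062667.1 held 40.8 ± 18.3% of BBC3 in luteal and 59.2 ± 13.7% in follicular phase ovaries (exact permutation test, p = 0.111, adjusted 0.259). For BCL2, BCL2L1, BID and BAD the share of the leading transcript gave exact permutation p-values from 0.317 to 0.690. The BCL2 difference of 10.1 percentage points ran from 5.45 without luteal phase replicate 3 to 18.9 without follicular phase replicate 4 (exact permutation test, adjusted p = 0.139). Cuffdiff divides fragments among overlapping transcripts of a gene, and its part in these shares was not tested.

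Ratios between members follow from the levels above and are given without a test. BCL2 stood at 0.450 ± 0.171 of the BAX level in luteal and at 0.980 ± 0.325 in follicular phase ovaries (SD, n = 5 each). Its luteal values ran from 0.260 to 0.706 and its follicular values from 0.547 to 1.42. The ratio of BCL2L1 to BAX was 1.32 ± 0.170 in luteal and 1.25 ± 0.217 in follicular phase ovaries. MCL1 was 60.2 to 108 times as abundant as BCL2 in luteal and 25.6 to 52.4 times in follicular phase ovaries, ranges that did not overlap. MCL1 and BCL2 each overlapped on their own, and the share of such ratios without overlap over all genes was not determined. BCL2L1 to BCL2 overlapped, at 2.12 to 4.54 in luteal and 1.02 to 2.36 in follicular phase ovaries. MCL1 made up 94.8 ± 0.610% of the summed FPKM of the 3 anti-apoptotic genes in luteal and 93.1 ± 1.23% in follicular phase ovaries, and BCL2 made up 0.878% to 1.58% and 1.79% to 3.56%. The ratio of the anti-apoptotic sum, nearly all of it MCL1, to the sum of the 6 pro-apoptotic genes was 2.72 to 2.99 in luteal and 2.13 to 2.80 in follicular phase ovaries. Without MCL1 the means stood the other way round, at 0.149 against 0.171.

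**Figure D4:**
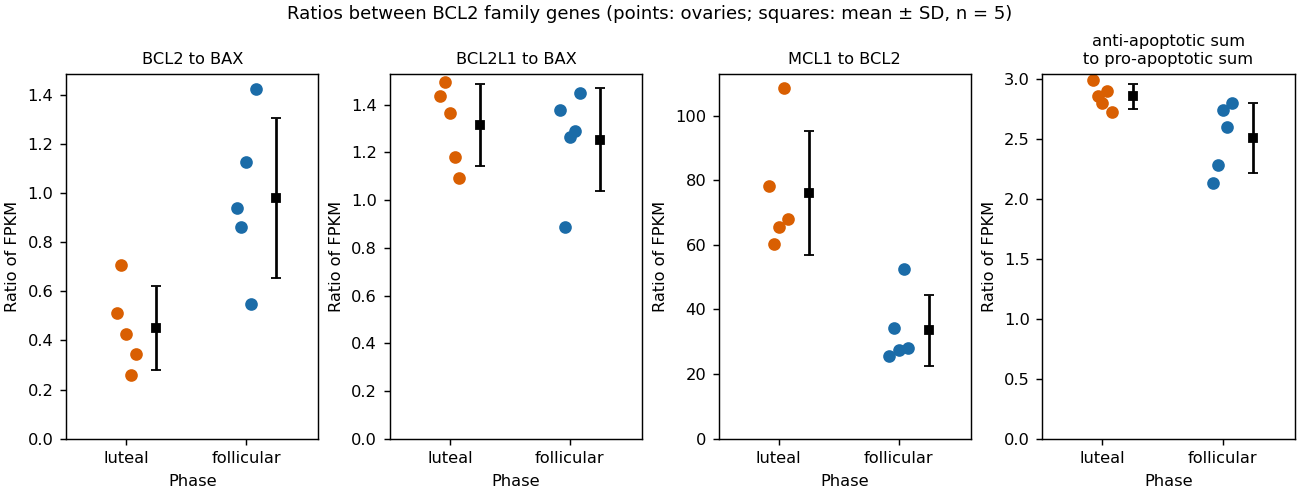
Ratios of FPKM in each ovary (points) with the mean ± SD of 5 ovaries (squares), for BCL2 to BAX, BCL2L1 to BAX, MCL1 to BCL2 and the anti-apoptotic to the pro-apoptotic sum, all axes starting at 0. MCL1 to BCL2 does not overlap between the phases, although MCL1 and BCL2 each do. BCL2 to BAX is lower in the luteal phase on average, and BCL2L1 to BAX is at 1.32 against 1.25.

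The rest of the family, 12 further genes, gave 4 calls among the 11 that passed the filter, 1 higher and 3 lower in the luteal phase, where 43.7% of all genes were called. BCL2A1 (BFL-1), an anti-apoptotic gene known from immune and endothelial cells, was higher in the luteal phase, at 5.44, 6.05, 4.97, 7.64 and 5.60 FPKM against 3.49, 2.83, 3.43, 3.98 and 4.58. The phases did not overlap, as for 28.4% of all genes tested, and the log2 fold change was 0.69 (standard error 0.15, limma adjusted p = 0.00362), called in all 20 alternatives. Beside it, 5 of 6 endothelial and 1 of 8 lymphocyte and macrophage markers were called higher in the luteal phase, and their part in this was not tested. BCL2L10, known for its expression in oocytes, fell in the luteal phase, at 0.660 ± 0.376 against 1.34 ± 0.337 FPKM (log2 fold change -1.01, limma adjusted p = 0.0223). Its call was lost without follicular phase replicate 3 (limma adjusted p = 0.0505) and without luteal phase replicate 5 (0.0545), and oocyte markers, of which 6 of 10 were lower in the luteal phase, moved beside it, a part that was not tested. So of the 5 anti-apoptotic genes measured, BCL2 and BCL2L10 fell, BCL2A1 rose, and MCL1 and BCL2L1 gave no call.

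Among the other effector and BH3-only genes, BMF, which is tied to the cytoskeleton and to loss of attachment, was lower in the luteal phase. It ran from 2.66 to 3.60 FPKM there and from 2.69 to 7.90 in the follicular phase, where replicate 2 lay among the luteal values. The log2 fold change was -0.84 (standard error 0.26, limma adjusted p = 0.0229), and the call was lost on the TPM scale (0.0548), for its most abundant transcript (0.0884) and when any 1 of 5 ovaries was left out (up to 0.0561). BNIP3, a mitochondrial protein known from hypoxia and mitophagy, was at 14.9 ± 0.720 against 17.9 ± 2.29 FPKM (log2 fold change -0.26, limma adjusted p = 0.0394), and this call was lost under each of the 3 other scalings (up to 0.220), without the trend (0.0558), for its most abundant transcript (0.0565) and on leaving out any 1 of 8 ovaries. PMAIP1 (NOXA), which binds MCL1, was at 4.84 ± 0.896 against 6.31 ± 1.09 FPKM (log2 fold change -0.38, limma adjusted p = 0.0574), and it passed with the replicate number as a block and without luteal phase replicate 1 (0.0320). BOK, BIK, BNIP3L, BCL2L13, BCL2L14 and BCL2L15 were uncalled, with adjusted p-values in limma from 0.134 to 0.650, and of these BCL2L15 passed without luteal phase replicate 3 (0.0408). HRK was below the filter and listed at 0 in 5 ovaries.

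Outside the family, 4 lists of apoptosis genes were read in the same fit. Over all 6 lists, the further family genes included, 23 of 61 genes tested were called (37.7%, against 43.7% of all genes), 6 higher and 17 lower in the luteal phase. This split depended on the scaling, with 6 higher and 13 lower for the common median, 6 and 16 for quantile normalization and 9 and 7 for TPM.

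In the list of caspases, apoptosome genes and mitochondrial factors, VDAC1, VDAC2 and VDAC3 included, 7 of 15 genes were called, 2 higher and 5 lower in the luteal phase. The median log2 fold change was -0.11 (all genes: 43.7% called, 15.9% higher and 27.8% lower, median -0.14). On the TPM scale the balance turned, with 3 higher, VDAC2 among them (limma adjusted p = 0.0345), and 2 lower. AIFM1, a flavoprotein of the mitochondrial intermembrane space that also serves respiratory chain assembly, rose most. It stood at 35.8, 40.3, 31.7, 39.3 and 42.6 FPKM in the luteal phase against 18.4, 13.9, 12.4, 13.5 and 13.8, with no overlap (log2 fold change 1.40, standard error 0.11, limma adjusted p = 5.69e-06). CASP9, the initiator caspase of the apoptosome, had lower luteal levels, at 3.24 ± 0.334 against 4.61 ± 0.393 FPKM (log2 fold change -0.50, limma adjusted p = 0.00344). CASP2 was also lower, by -0.38 on the log2 scale (limma adjusted p = 0.00861, and 0.0752 on the TPM scale), as was DFFB, the nuclease that cuts DNA in dying cells (-0.55, limma adjusted p = 0.0103, and 0.0780 for its most abundant transcript). CASP6 was higher, by 0.31 (limma adjusted p = 0.0444), a call lost on leaving out any 1 of 8 ovaries (up to 0.107), with no filter, without the trend and for its most abundant transcript. APAF1 and HTRA2 were the other calls, both lower in the luteal phase. That of HTRA2 was lost on the TPM scale (limma adjusted p = 0.112), and that of APAF1 under the 3 other scalings (up to 0.168), for its most abundant transcript (0.213) and on leaving out any 1 of 8 ovaries.

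Of the inhibitors of apoptosis, BIRC3 had lower luteal levels, at 15.7 to 17.5 against 21.9 to 27.6 FPKM (log2 fold change -0.49, limma adjusted p = 0.000496). XIAP, which blocks caspases directly, was lower as well, at 10.2 to 11.5 against 13.0 to 15.8 FPKM (-0.36, limma adjusted p = 0.00296, and 0.272 for its most abundant transcript). The other 3 genes tested, BIRC2, BIRC5 and BIRC6, gave no call, so that 2 of 5 were called, against 43.7% of all genes.

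In the death receptor list the 3 calls among 10 genes were all higher in the luteal phase, and the median log2 fold change was 0.20. Of all genes a larger share, 43.7%, was called, 15.9% were called higher, and the median was -0.14. TNFRSF1A, a receptor for TNF, was at 39.7 ± 2.28 against 29.7 ± 4.53 FPKM (log2 fold change 0.43, limma adjusted p = 0.00467). FAS, the receptor of the FAS ligand, was at 4.33 ± 0.432 against 2.94 ± 0.518 FPKM (0.55, limma adjusted p = 0.00750). TRADD, an adaptor of TNFRSF1A, changed by 0.21 (limma adjusted p = 0.0398), and its call was lost on leaving out any 1 of 8 ovaries and with the replicate number as a block (0.0624), and for its most abundant transcript (0.385). CFLAR and BID, which act on either side of caspase-8, gave no call.

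Among upstream regulators of the family, 7 of 20 genes tested were called, all lower in the luteal phase, with a median log2 fold change of -0.22, near the 27.8% called lower and the median of -0.14 over all genes, and on the TPM scale 2 were lower and 1 higher. FOXO3, a transcription factor that can induce BCL2L11 and BBC3, was at 6.51 to 8.07 against 8.62 to 11.7 FPKM (log2 fold change -0.47, limma adjusted p = 0.00311). FOXO1 was lower by -0.52 (limma adjusted p = 0.0115, and 0.0541 on the TPM scale). HUWE1, a ubiquitin ligase of MCL1, was lower by -0.27 (limma adjusted p = 0.00786, and 0.156 on the TPM scale). MDM2, MDM4, DDIT3 and TXNIP were the other calls, of which DDIT3 held in all 20 alternatives. MDM2 was lost on the TPM scale (limma adjusted p = 0.146) and for its most abundant transcript (0.0781). MDM4 was lost under the 3 other scalings (up to 0.177) and on leaving out any 1 of 6 ovaries, and TXNIP with a common median (0.0592), on the TPM scale (0.0539) and on leaving out any 1 of 4 ovaries.

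**Figure D5:**
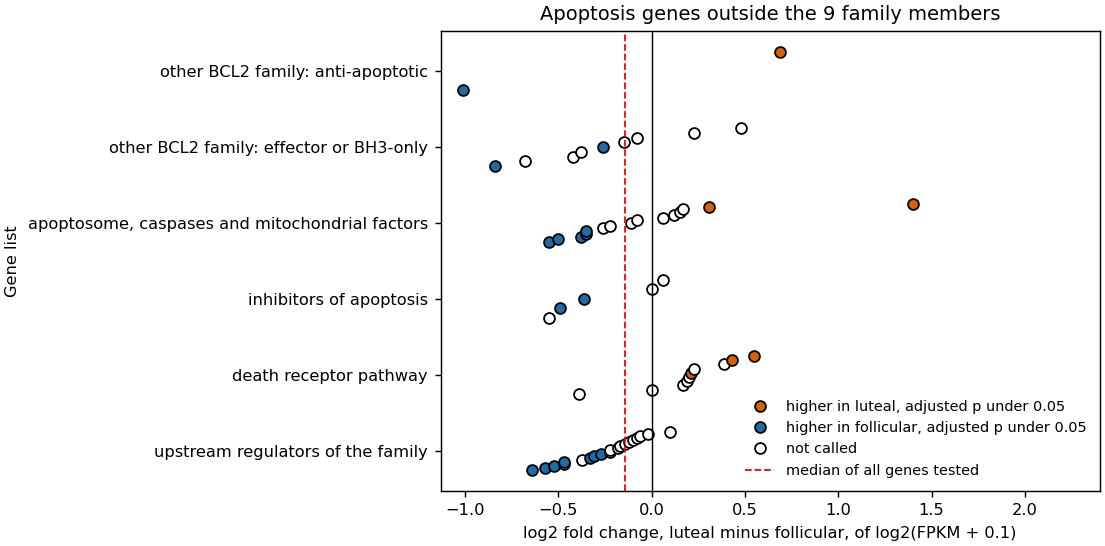
log2 fold change (luteal minus follicular, of log2(FPKM + 0.1)) of each tested gene in 6 lists of apoptosis genes outside the 9 members, filled where the adjusted p was under 0.05 (orange higher in luteal, blue higher in follicular) and open otherwise; the dashed line is the median of all genes. The 3 filled points of the death receptor list lie to the right of 0 and the 7 of the upstream regulators to the left; AIFM1 is the point farthest right, at 1.40.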

How the data were processed

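Paired-end, strand-specific libraries were made from rRNA-depleted total RNA of 10 goat ovaries. HISAT2 and StringTie were used by the authors for alignment and assembly, and Cuffdiff gave the deposited FPKM of each transcript in each ovary. The genome build is not given in the sources used here. The 2 other deposited tables repeat rows of the transcript table and were not used.

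FPKM of protein-coding transcripts were summed by symbol and analysed as log2(FPKM + 0.1) without further scaling, with limma 3.58.1 in R 4.3.3 (lmFit, eBayes with trend). Shares of transcripts were compared by exact permutation of the ovaries. Genes were called at an adjusted p under 0.05. Other steps used Python 3.11.15 with pandas 2.3.3 and numpy 2.4.6, and the fit was tested on simulated data.

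Members and gene lists were chosen with earlier results of these data known. Single genes are given where they are members or further family genes, or are among the 3 calls with the smallest adjusted p per list and direction, those without overlap first. Listed symbols absent from the table were matched through RefSeq synonyms (CYP11A1 and CYP17A1 as LOC102173131 and LOC102182663). CYCS, TNFRSF10A, TNFRSF10B, CASP10, HSD3B1, OOEP, CD163, HBB, HBA and HBA1 were not analysed here. The alternatives tried were a pseudocount of 1 or 0.01, leaving the filter out or raising it to 0.5 FPKM, a common median, quantile and TPM scaling, eBayes without trend, a replicate block, the most abundant transcript in place of the sum, an adjusted p under 0.01 and leaving out each ovary.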

Additional observations from a re-analysis of the deposited data

Results flagged for a closer look

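In 5 of 52 groups of 5 ovaries, 1 ovary lay far from the other 4, its gap to the nearest exceeding 0.71 of the group's range. By chance 1 in 20 groups of independent, normally distributed values does so. Transcript shares are bounded and values of the same gene are related, so 5 of 52 cannot be read against it. BCL2L11 was at 3.26 FPKM in luteal phase replicate 5, where the other luteal phase ovaries lay between 2.33 and 2.51. BBC3 was at 1.85 FPKM in luteal phase replicate 1, against 0.876 to 1.08. The share of BCL2 held by XM_018039337.1 was 97.3% in follicular phase replicate 4, against 49.7% to 57.3% in the other follicular phase ovaries. The share of BAX held by XM_018062750.1 was 19.2% in follicular phase replicate 3, against 97.4% to 98.7%. The share of BID held by XM_018048713.1 was 63.7% in follicular phase replicate 2, against 86.0% to 92.3%. The 3 flagged shares came from 3 different ovaries, and the sums of these genes in those ovaries were not flagged.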

How the results depend on the processing

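BCL2 kept its direction and its call in 20 of 20 alternatives, with log2 fold changes from -1.24 to -0.82 and adjusted p-values in limma up to 0.0119. The count of called member genes was 1 in every setting other than leaving out 1 ovary, which gave 1 to 2 (2 without luteal phase replicate 1 or 2). Called transcripts of the members numbered 1 to 2 when 1 ovary was left out (2 without follicular phase replicate 4) and 0 at an adjusted p under 0.01. Called pathway genes numbered 15 to 23 when 1 ovary was left out, with 11 to 17 lower in the luteal phase (lowest without luteal phase replicate 5). They numbered 15, with 10 lower, when the most abundant transcript stood for each gene, 10, with 6 lower, at an adjusted p under 0.01, and the number lower was 7 on the TPM scale. Over all genes, 4027 calls, 2371 of them lower, remained at an adjusted p under 0.01, and 2610 were lower on the TPM scale, where 52.5% of calls were higher in the luteal phase against 36.3% without scaling, 48.8% with a common median and 41.8% with quantile normalization. Uncalled log2 fold changes near 0 turned sign with 1 ovary left out, where BCL2L1 ran from -0.01 to 0.17, BAX from -0.05 to 0.10, BAK1 from -0.04 to 0.17 and BCL2L11 from -0.01 to 0.18, as did the difference in the BID transcript share, from -2.57 to 5.78 percentage points. With the most abundant transcript in place of the sum, BCL2L1 turned to -0.02 and BCL2L11 to -0.41, while BAX moved from 0.03 to 0.49 and BBC3 from -0.45 to -0.95, all of them uncalled. The cause of these changes was not tested.

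The phases share replicate numbers, but no source says that ovaries of equal number belong together, and whether they share a goat or a batch was not tested. Deviations from the phase means correlated between same-numbered ovaries at 0.03 to 0.20 over 5 pairs, and 5 of 10 ovaries correlated best with their own number. With the replicate block, 7020 genes were called, against 6711, and the BCL2 log2 fold change was -1.07 (limma adjusted p = 0.00211).

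Without read counts, counting error cannot be told from the spread between ovaries, and a value listed at 0 does not show absence.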

Other observations

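Among 11427 genes with a mean of at least 1 FPKM, those most like BCL2 once each phase's mean was taken off were TBCD, a folding factor of tubulin, BTBD11 and NCK2, a signalling adaptor. Over the 10 ovaries their Pearson's r with BCL2 was 0.95, 0.94 and 0.93, and without the 2 ovaries farthest from their BCL2 phase mean it was 0.81, 0.95 and 0.73. These genes were picked as the highest of many, so r is given as a description. Their phase differences were unlike that of BCL2. TBCD was higher in the luteal phase, at 12.0 to 16.2 against 8.08 to 11.1 FPKM (log2 fold change 0.51, limma adjusted p = 0.00444), and BTBD11 was at 6.51 to 9.08 against 3.36 to 5.74 FPKM (0.68, limma adjusted p = 0.00301). NCK2 was at 14.5 to 16.9 against 16.1 to 18.6 FPKM (-0.16, limma adjusted p = 0.0741).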
